A study of Caenorhabditis elegans with 2 samples.

Results

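Peaks of F23B12.7-eGFP that lie away from annotated coding starts and away from the genes of structural RNAs are described here and are called distal peaks. They were taken from the list of reproducible peaks of a chromatin immunoprecipitation sequencing (ChIP-seq) experiment, in which DNA bound by a tagged protein is pulled down with an antibody and sequenced. A nuclear peak was a distal peak when its summit lay more than 500 bp from the start of every protein-coding gene and more than 250 bp from every tRNA, snoRNA, snRNA and rRNA gene of the Ensembl annotation of WBcel235, the same build as ce11. The rule gave 374 of 1684 nuclear peaks (22.2%). Of the other 1310 peaks, 937 lay at a coding start only, 303 at an RNA gene only and 70 at both. The rule used positions alone and no signal.

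All samples came from a single group. Whole young adult hermaphrodites of Caenorhabditis elegans were used. Their strain, OP429, carries the mutation unc-119(tm4063) on chromosome III and the insertion wgIs429, in which F23B12.7 has a C-terminal GFP-FLAG tag, and the antibody was raised against GFP. There were 2 biological replicates and no second genotype, treatment or stage, so no conditions were compared. The function of F23B12.7 was not examined here. The material was whole animals, so a peak cannot be assigned to a tissue. No nuclear peak lay within 500 bp of F23B12.7 itself or of unc-119, the gene of the mutation and of the usual rescue marker of such strains, and no distal peak lay within 20 kb of either.

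Sites away from gene starts have several known roles in this animal. Introns and the spaces between genes hold enhancers, and many annotated gene starts are sites of trans-splicing, so that transcription can begin upstream of them. Small genes for noncoding RNAs, some of them read by RNA polymerase III, lie in introns and gaps. On the X chromosomes of hermaphrodites, the dosage compensation complex is loaded at recruitment sites that hold a GC-rich motif, the motif enriched on X, and then spreads to the promoters of X-linked genes. None of this was measured here beyond the positions, sequences and signals of the peaks.

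The strongest distal peaks were mainly X-linked. Of the 10 distal peaks with the highest pooled signal, 9 lay on X, and of the 20 highest, 14 did, against 80 of all distal peaks (21.4%). Several carried GCGCAGGG, the core of the motif enriched on X, near their summits. The bases within 50 bp of the summit are given here for 8 of these peaks, since they carry the sequence pattern on which this result rests. Capitals mark GCGNAGGG on either strand, that is the core with any base at the fourth position.
In the gap beside gtr-1, chrX:806669-806769: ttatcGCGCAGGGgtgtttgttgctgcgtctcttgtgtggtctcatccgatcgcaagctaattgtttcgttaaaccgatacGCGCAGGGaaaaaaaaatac
Upstream of nspc-17, chrX:14525841-14525941: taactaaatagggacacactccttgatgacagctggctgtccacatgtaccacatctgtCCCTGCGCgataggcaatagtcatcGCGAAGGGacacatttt
Between genes near W02H3.3, chrX:11094115-11094215: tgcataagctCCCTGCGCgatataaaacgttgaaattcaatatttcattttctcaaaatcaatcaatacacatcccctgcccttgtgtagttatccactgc
In an intron of mom-1, chrX:6296499-6296599: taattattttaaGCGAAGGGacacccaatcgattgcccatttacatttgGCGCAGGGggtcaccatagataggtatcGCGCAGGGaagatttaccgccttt
Upstream of K02D3.1, chrX:13700836-13700936: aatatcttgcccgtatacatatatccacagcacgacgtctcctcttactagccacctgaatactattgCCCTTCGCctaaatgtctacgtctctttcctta
Upstream of F20B6.9, chrX:4209233-4209333: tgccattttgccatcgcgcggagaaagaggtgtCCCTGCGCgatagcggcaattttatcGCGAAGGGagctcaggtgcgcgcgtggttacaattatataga
Upstream of ins-39, chrX:1344975-1345075: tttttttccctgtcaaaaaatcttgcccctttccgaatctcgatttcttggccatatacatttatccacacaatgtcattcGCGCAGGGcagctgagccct
In an intron of Y41G9A.17, chrX:2997018-2997118: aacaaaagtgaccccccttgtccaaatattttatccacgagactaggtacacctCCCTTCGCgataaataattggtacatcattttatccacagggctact

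The core GCGCAGGG was searched on both strands within 50 bp of every summit. It was present at 12 of the 80 distal peaks on X (15%, 95% exact interval 8.0 to 24.7%) and at 0 of the 294 autosomal distal peaks, for which the interval reached 1.25%. Among the peaks at coding starts or RNA genes, it was present at 0 of 185 on X and at 1 of 1125 on autosomes. Over all nuclear peaks 0.772% carried it. The core was also uncommon in the surrounding sequence. It was found in 1 of 80 windows of the same length centred 500 bp to the left of the X-linked summits, in 0.0388% of all tiles of that length on X and in 0.0263% of the autosomal tiles. The intervals cover counting error only and treat peaks as independent.

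The form GCGNAGGG, which includes the core, was examined after the windows had been seen, because GCGAAGGG stood beside the core in several of them. It was present at 17 of 80 distal peaks on X (21.2%, interval 12.9 to 31.8%), at 2 of 294 on autosomes and at 1.54% of all nuclear peaks. It was found in 0.207% of the tiles of X and 0.173% of the autosomal tiles. When the whole peak was read in place of the window, also a choice made after seeing the data, the core itself was present in 15 of 80 distal peaks on X (18.8%) and in 0 autosomal ones, against 2 of 185 and 4 of 1125 of the other peaks.

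**Figure D1:**
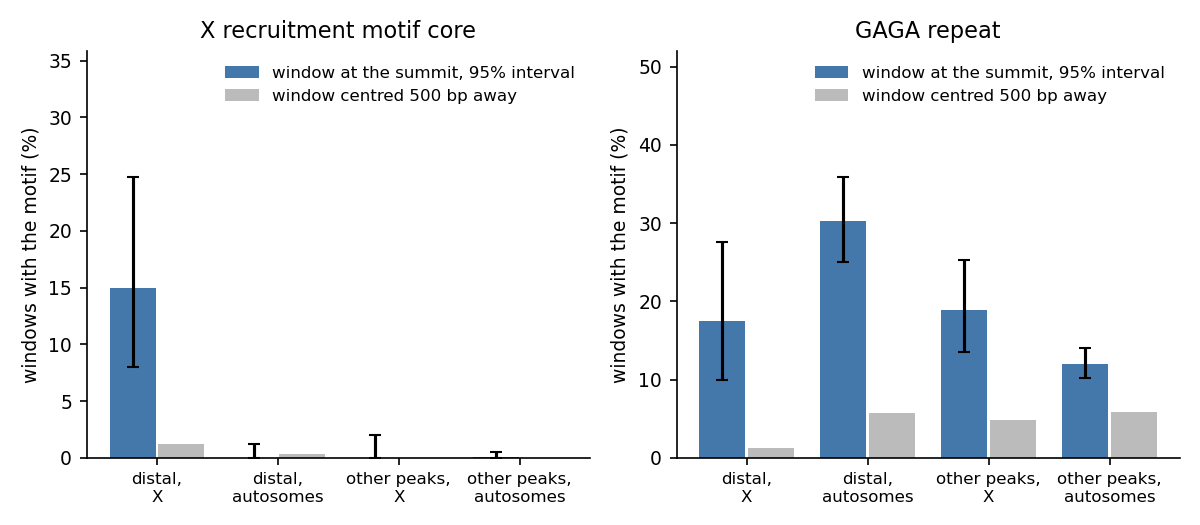
Share of windows (%, y axis), each reaching 50 bp to either side of its centre, with the core of the motif enriched on X (left) and with GAGAGA (right), at the summits (blue, 95% exact interval) and 500 bp away (grey), for distal peaks and other peaks on X and on autosomes. The core stood at 15% of the distal peaks on X and at or near 0 in the other 3 groups, whereas GAGAGA was most frequent at autosomal distal peaks (30.3%).

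Peaks with the motif were concentrated at the top of the X-linked signal order. The core was present at 5 of the 10 strongest distal peaks on X, at 9 of the 20 strongest and at 10 of the 30 strongest, so that 2 of the remaining 50 carried it. GCGNAGGG, a form chosen after the windows had been seen, was present at 14 of the 20 strongest, and that choice bears on this count. The 12 peaks with the core had a median pooled signal of 96.0 and ranged from 50.8 to 169, and the 68 X-linked distal peaks without it had a median of 47.0 and ranged from 38.4 to 152. The signal is the authors' own value for each peak and is used only within 1 list. The ranges overlap, and some of the strongest peaks had neither form. The same order held in each replicate, where the peaks with the core had a median rank of 188 in replicate 1 and 322 in replicate 2, against 1138 and 1140 for those without. Rank 1 is the strongest of 30000 peaks in the list of a replicate.

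**Figure D2:**
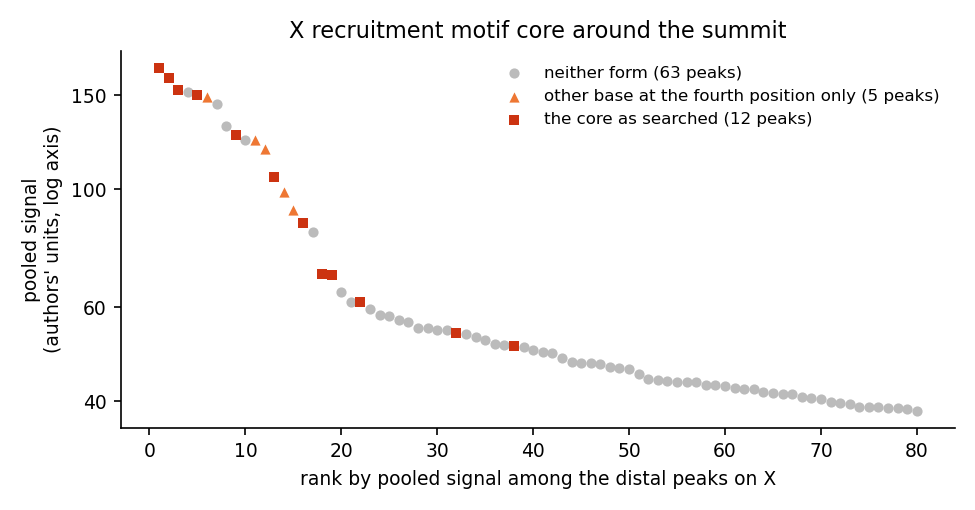
Pooled signal (authors' units, log axis) of the 80 distal peaks on X against their rank by that signal, marked by the form of the motif core within 50 bp of the summit. The 12 squares and 5 triangles lie mostly among the first 20 ranks, where 14 of 20 peaks carry either form.

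Single peaks show the range. The strongest distal peak on X, at chrX:806670-806784, lay between genes, 3941 bp downstream of the start of gtr-1, which RefSeq lists as a protein with a G protein-coupled receptor domain. Its pooled signal was 169, and it had a signal of 95.4 (rank 37) in replicate 1 and 74.2 (rank 27) in replicate 2. Its window held the core at both ends. The peak at chrX:14525713-14526068, 710 bp upstream of nspc-17, a nematode-specific peptide gene, had a pooled signal of 161, with 100.2 (rank 29) and 64.4 (rank 32) in the replicates. Intron 7 of mom-1, which encodes the porcupine O-palmitoleoyltransferase of Wnt secretion, held the peak at chrX:6296371-6296726. That peak had a pooled signal of 150.3, with 94.4 (rank 39) and 56.7 (rank 47), and its window held the core in 2 copies and GCGAAGGG in another. All 3 peaks stood among the 50 strongest peaks of each replicate.

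Not every strong X-linked peak carried the core. The peak at chrX:1627110-1627218, 966 bp upstream of the F-box gene fbxb-58, had a pooled signal of 152 and ranks of 55 and 28 with neither form. The peak at chrX:12363029-12363129 lay in a coding exon of F19H6.6, with a signal of 144 and ranks of 26 and 126, also with neither form. Its window was AT-rich, with 24.8% G and C. Neither form was found at the peaks downstream of the starts of T27A8.7 (signal 131, ranks 73 and 53) and F22H10.2 (signal 124, ranks 53 and 125). The peaks at K02D3.1 (signal 149, ranks 34 and 46), in Y41G9A.17 (signal 124, ranks 118 and 39) and 2511 bp downstream of the start of the zinc finger gene ZK899.6 (signal 119.1, ranks 114 and 60) had GCGNAGGG but not the core. The X-linked peak at chrX:4209105-4209460, 1798 bp upstream of F20B6.9, ranked 47 in replicate 1 and 240 in replicate 2, the largest gap among the 10 strongest distal peaks. Another distal peak with the core lay beside it at chrX:4208521-4208876, with a signal of 61.4 and ranks of 261 and 1960.

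The distal peaks of X and of the autosomes were placed differently along their chromosomes. Of the 80, 25 (31.2%, interval 21.3 to 42.6%) lay in the middle 50% of the length of X, which holds 49.5% of the bases of X that meet the rule. On the autosomes, 179 of 294 (60.9%, interval 55.0 to 66.5%) lay in the middle 50%, which holds 48.7% of such bases. Of the other peaks on X, 94 of 185 (50.8%, interval 43.4 to 58.2%) lay in the middle. The share of the other peaks on autosomes is not given here, so the autosomal share is not shown to be particular to distal peaks. The differences were not tested. Of the 17 X-linked peaks with GCGNAGGG, 5 lay in the middle. On X, 55 distal peaks lay between genes (68.75%, against 44.2% of the eligible bases of X). A further 22 lay in introns (27.5 against 32.0%) and 3 in exons (3.75 against 23.8%). On the autosomes, 52.7% lay between genes (against 34.9% of the bases), 31.97% in introns (36.4%) and 15.3% in exons (28.6%).

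Strong distal peaks outside X were few. The strongest of all 374, at chrIII:8043866-8044070, lay 523 bp upstream of K12H4.5 and so just past the 500 bp limit. Its pooled signal was 245, the third highest of all nuclear peaks, and it ranked 17 in both replicates, with signals of 149 and 100.98. On chromosome II, the peak at chrII:6346762-6347117 lay 779 bp downstream of the start of lgg-1, which encodes an autophagy protein of the Atg8 family, with a signal of 119.9 and ranks of 84 and 93. The peak at chrII:6370161-6370516, 964 bp upstream of lin-23, an F-box gene, had a signal of 116 but ranks of 45 and 412. The largest disagreement among the 30 strongest was at chrIV:6756423-6756778, 710 bp upstream of usp-4, a ubiquitin hydrolase gene, with ranks of 106 and 3394. On chromosome IV the next strongest lay 3182 bp downstream of the start of fat-1, an omega-3 fatty acid desaturase gene, with a signal of 74.5 and ranks of 761 and 178. The strongest on chromosome V lay upstream of letm-1, a mitochondrial ion exchanger gene, with 77.5 and ranks of 429 and 309, and upstream of grd-6 with 76.5 and ranks of 570 and 383.

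**Figure D3:**
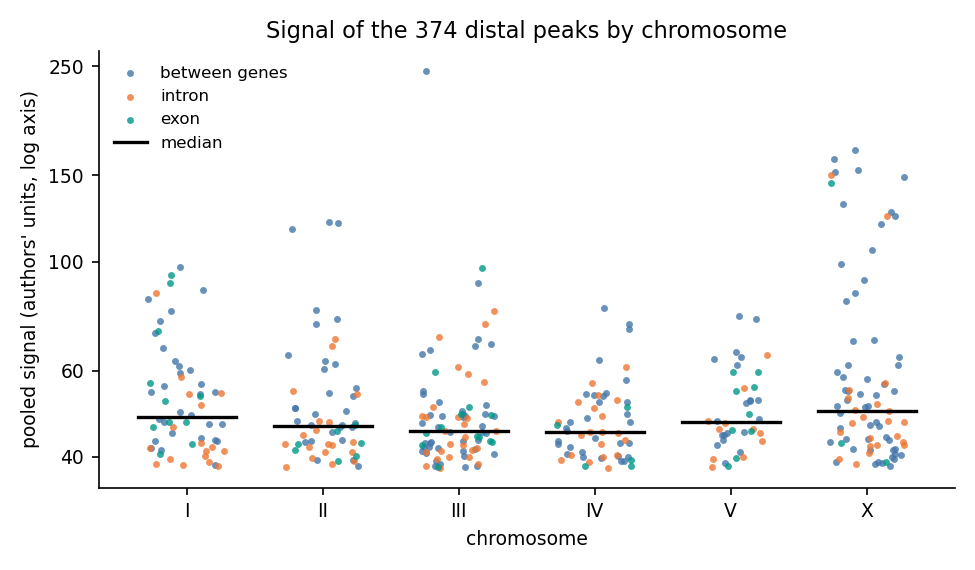
Pooled signal (authors' units, log axis) of each of the 374 distal peaks by chromosome, coloured by position, with the median as a bar. The medians lie between 44.9 on chromosome IV and 49.7 on X, while 12 of the 15 strongest peaks are on X.

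Distal peaks had a lower median signal than the other nuclear peaks. The median pooled signal was 46.7 (quartiles 42.0 and 54.7, range 37.99 to 245), against 54.5 for the other nuclear peaks, 52.2 for peaks at a coding start only and 59.2 for peaks at an RNA gene only. A signal above the median of all nuclear peaks, 52.2, was found for 121 of 374 (32.4%, interval 27.6 to 37.4%), for 721 of the other 1310 (55.0%), for 49.8% of peaks at a coding start only and for 66.3% of those at an RNA gene only. The same share was 35 of 80 (43.8%) on X and 86 of 294 (29.3%) on the autosomes. Distal peaks were 22.2% of all nuclear peaks but 7 of the 20 strongest (35.0%), 6 of them on X, and 13 of the 50 strongest (26.0%), 11 of them on X. Further down their share was smaller, with 17 of the 100 strongest (17.0%) and 26 of the 200 strongest (13.0%). These comparisons are descriptions without a test, since each peak has 1 pooled value.

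Fewer distal peaks stood among the strongest peaks of both replicates. The 1707 strongest peaks of each replicate list were compared with the 1684 peaks, where 56.8% overlapped a strongest peak of both replicates. Of the distal peaks, 156 (41.7%, interval 36.7 to 46.9%) did so, against 801 of the other 1310 (61.1%, interval 58.4 to 63.8%). The share was 57.7% for peaks at a coding start only and 69.0% for those at an RNA gene only. A further 197 overlapped a strongest peak of exactly 1 replicate and 21 of neither. Replicate 1 covered 275 and replicate 2 covered 234. In the whole lists of 30000 peaks, 370 distal peaks (98.9%) and 1304 of the other 1310 (99.5%) had a counterpart in both. Those lists were the input of the test that gave the reproducible peaks, so high shares there were largely built in. The median rank of the distal peaks was 1138 in replicate 1 and 1326 in replicate 2, against 815 and 876 for the other peaks. The depth of each library is unknown from these files, and its part in this difference was not tested.

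Signals of the replicates were related for the distal peaks of X and hardly for those of the autosomes. On X the Pearson correlation of log10 signals was 0.55 and the Spearman correlation 0.39 over 79 peaks, and on the autosomes they were 0.06 and -0.06 over 291. For the other nuclear peaks both were 0.41 over 1304. These are correlations across peaks that share their libraries and all passed the same reproducibility threshold, and they are given as descriptions. The effect of that threshold on the correlations was not tested. Distal peaks in both lists had summits a median of 42 bp apart, and the other nuclear peaks 36 bp.

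**Figure D4:**
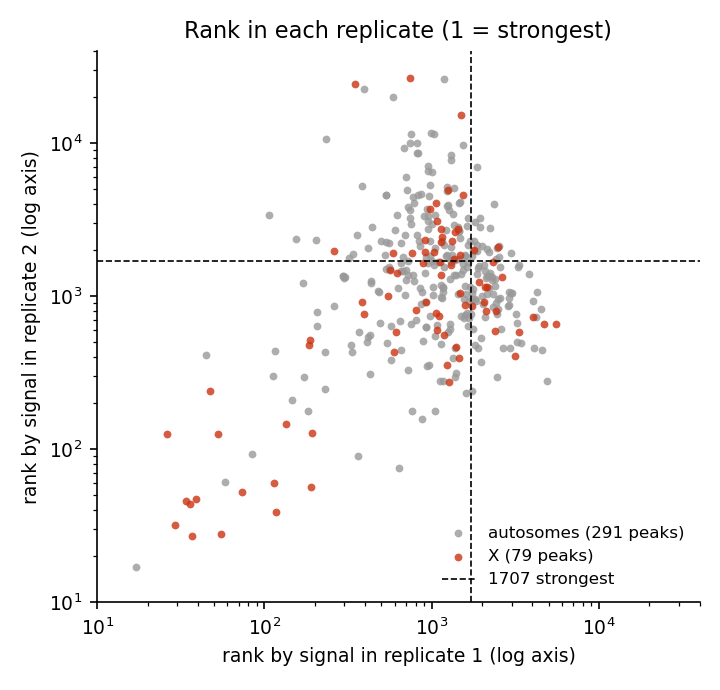
Rank by signal in replicate 1 (x) and replicate 2 (y), both on log axes, for the 370 distal peaks in both lists; dashed lines mark rank 1707. X-linked peaks (red) reach the lower left corner, while most autosomal peaks (grey) form a cloud around their median ranks of 1169 and 1370.5 with no visible slope.

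Spaces between genes held most distal peaks. The summit lay between genes for 210 (56.1%, interval 51.0 to 61.2%), in an intron of a coding gene for 116 (31.0%, interval 26.4 to 35.97%) and in an exon for 48 (12.8%, interval 9.62 to 16.7%). Of the nuclear bases that meet the rule, 36.6% lie between genes, 35.6% in introns and 27.8% in exons. Per Mb of such bases there were 7.08, 4.03 and 2.14 distal peaks. Of the other 1310 nuclear peaks, 76.3% lay between genes, 17.4% in introns and 6.26% in exons. The share of distal peaks between genes was thus above that of the bases but below that of the other peaks. The median signals were 48.7 between genes, 44.5 in introns and 45.7 in exons, with strongly overlapping ranges. Among the peaks above the median signal of all nuclear peaks, 84 of 121 (69.4%) lay between genes and 25 (20.7%) in introns.

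**Figure D5:**
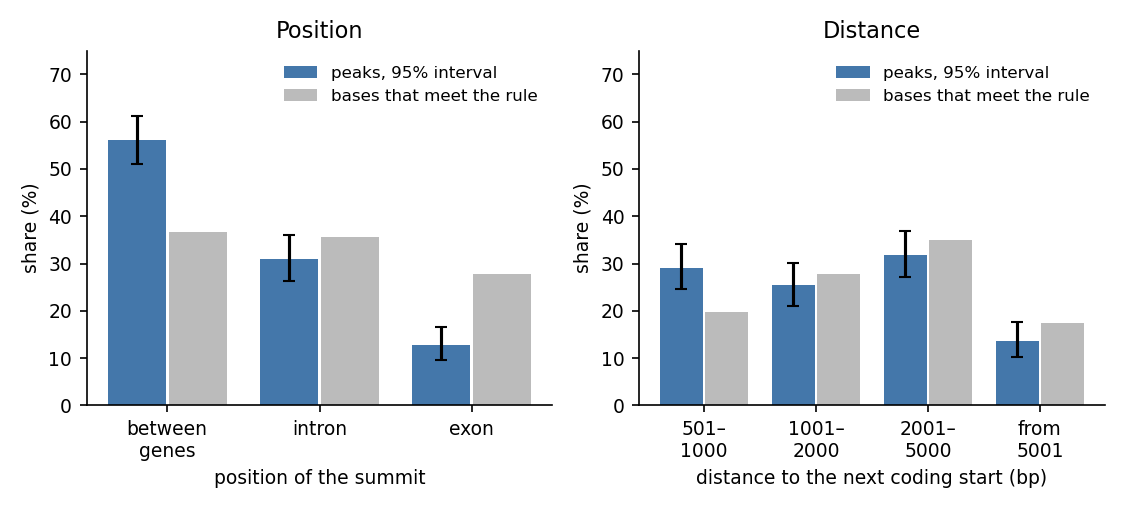
Share (%) of the 374 distal peaks (blue, 95% exact interval) and of the nuclear bases that meet the rule (grey), by position of the summit (left) and by distance to the next coding start in bp (right). Peaks exceed bases between genes (56.1 against 36.6%) and at 501 to 1000 bp (29.1 against 19.7%) and fall short in exons (12.8 against 27.8%).

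Distances to the next coding start ran from 501 to 20221 bp with a median of 1798 bp. Between 501 and 1000 bp lay 109 peaks (29.1%), a larger share than that of the eligible bases there (19.7%). From 1001 to 2000 bp there were 95 (25.4% against 27.8%), from 2001 to 5000 bp 31.8% (against 35.0%) and beyond 5000 bp 51 (13.6% against 17.5%). The next start lay downstream of the peak, so that the peak was upstream of the gene, for 193 (51.6%, interval 46.4 to 56.8%), against 40.3% of the bases. Within 500 bp of the end of a coding gene lay 92 (24.6%), against 15.03% of the bases and 25.1% of the other nuclear peaks. Beside the limit itself, the nearest peaks inside the rule lay 501 bp from alh-1, 502 bp from rps-24 and 503 bp from tag-340, with signals of 41.7, 53.3 and 48.5. The nearest outside lay 497 bp from F21C10.10, 496 bp from eri-5 and 492 bp from T21B10.3, with signals of 41.6, 44.0 and 73.9.

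A gene start is not the only start of a coding gene. Of the distal peaks, 40 (10.7%, interval 7.75 to 14.3%) lay within 500 bp of the 5′ end of some coding transcript, with a median signal of 44.0 and a highest of 69.6. The share was 78.4% for the other nuclear peaks, most of which lie at a gene start by the rule. The share of eligible bases near such an end is not given here, so the 40 show no preference. Among the 210 peaks between genes, 62 lay between divergent genes, 118 between genes in tandem and 30 between convergent genes. The rule leaves out gap sequence within 500 bp of a gene start. The bases in gaps of each kind are not given here, so these counts show no preference. The gaps with a distal peak had a median length of 3976 bp.

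Introns with a distal peak were long. Their median length was 2328 bp (quartiles 923 and 6429 bp), where the introns of the first-listed transcripts of coding genes have a median of 63 bp, and a longer intron offers more bases to hold a peak. The peak lay in the first intron for 42 and in a later one for 74. The rule leaves out intron sequence within 500 bp of a gene start. The bases of first and later introns are not given here, so these counts show no preference. For 84 of the intronic peaks the next coding start was that of the host gene, and for 32 that of another gene. The farthest peaks from any coding start lay 20221 and 17711 bp into gcn-1, both in intron 11. Peaks 15311 bp into pqn-41, 13395 bp upstream of irld-18 and 12994 bp into Y105C5A.15 followed, with signals of 45.3, 53.9 and 40.3. Introns and exons of 148 genes held peaks. Of these genes, 13 held 2 and ppfr-1, which encodes a regulatory subunit of protein phosphatase 4, held 4. The 2-peak genes included the TFEB-like factor gene hlh-30, the forkhead gene fkh-7, the zinc finger genes zfp-1 (with a peak of signal 74.5 and ranks of 207 and 634) and sma-9, the nuclear hormone receptor gene nhr-19 and the chromatin remodelling gene nurf-1. The 4 peaks in ppfr-1 had signals of 51.1, 46.1, 42.0 and 41.2, all below the nuclear median. Those with 51.1 and 42.0 overlapped the antisense RNA gene anr-20 and matched the same peak of each replicate, with ranks of 919 and 631.

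Exonic peaks were counted by the part of the gene. Of the 48, 37 lay in a 3′ untranslated region, 5 in a 5′ untranslated region, 4 in coding sequence and 2 in an exon of a noncoding transcript. The rule leaves out exon sequence within 500 bp of a gene start. The exon bases of each part are not given here, so these counts show no preference. The strongest distal peak in a 3′ untranslated region was in suro-1, a putative carboxypeptidase gene, with a signal of 94.0 and ranks of 183 and 179. That in ceh-8, a homeobox gene, had a signal of 90.4 and ranks of 230 and 248, and its summit lay 24 bp from the noncoding RNA gene ZK265.11 and 683 bp upstream of col-63. The peak in a 5′ untranslated region of C34C12.2 had a signal of 97.1 and ranks of 113 and 302, and that in the 3′ untranslated region of slc-25A46 had 72.3 and ranks of 873 and 158. Exonic windows had a median of 35.1% G and C, against 42.6% for all distal peaks and 46.5% for the other nuclear peaks.

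On the autosomes, the 6-mer with the largest gain at the summits over their flanks was a repeat of G and A. The windows below are from the strongest distal peak, from both peaks in intron 11 of gcn-1 and from an intron of larp-1, which encodes a La-related RNA-binding protein, and show how the repeat sits near the summit. Capitals mark GAGAGA on either strand.
Upstream of K12H4.5, chrIII:8043914-8044014: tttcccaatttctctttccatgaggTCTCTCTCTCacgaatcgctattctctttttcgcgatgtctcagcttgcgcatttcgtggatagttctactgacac
In gcn-1, stronger peak, chrIII:2169606-2169706: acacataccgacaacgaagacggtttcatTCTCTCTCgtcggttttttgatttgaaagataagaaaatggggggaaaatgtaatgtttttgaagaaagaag
In gcn-1, weaker peak, chrIII:2172116-2172216: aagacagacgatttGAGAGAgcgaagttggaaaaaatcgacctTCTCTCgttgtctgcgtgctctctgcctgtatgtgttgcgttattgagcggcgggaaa
In an intron of larp-1, chrIII:5014116-5014216: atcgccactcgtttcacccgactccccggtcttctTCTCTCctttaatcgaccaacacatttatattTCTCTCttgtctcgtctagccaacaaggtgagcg

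GAGAGA stood within 50 bp of 103 of 374 summits (27.5%, interval 23.1 to 32.4%), against 4.81% of the windows 500 bp to the left, 13.0% of the other nuclear peaks and 16.2% of all nuclear peaks. The share was 30.3% on autosomes and 17.5% on X, with 5.24 and 4.91% of the tiles carrying it there. Among the other peaks it was 12% on autosomes and 18.9% (interval 13.5 to 25.3%) on X, so the higher share at distal peaks was seen on the autosomes and not on X. It was 31.0% between genes, 28.4% in introns and 10.4% in exons. Peaks at a coding start only had it at 14.6%, and peaks at an RNA gene only at 8.25%. The median signal was 46.1 with GAGAGA and 47.0 without, and the ranges overlap. Among all 6-mers, GAGAGA had the largest gain from the flanks to the summits (22.7 percentage points), and AAAATT the largest loss (21.9 points, from 46.5 to 24.6%).

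The remaining motifs were compared between summits and flanks. CCAAT was present at 19.5% of distal summits and 17.4% of their flanks, TGATAA at 11.2 and 8.29%, CACGTG at 5.08 and 2.94%, the telomere repeat unit TTAGGC at 1.87 and 2.14%, and CTGTTTCA, the motif upstream of piRNA genes, at 0.267 and 0.802%. The autosomal tiles carried these 5 at 20.7% (CCAAT), 9.22% (TGATAA), 1.74% (CACGTG), 2.74% (TTAGGC) and 1.07% (CTGTTTCA). The A box TGGCNNAGT was present at 2.67% of summits, 1.07% of flanks and 0.985% of autosomal tiles. The B box GTTCGANNC, an internal promoter element of tRNA genes, was present at 7 distal peaks (1.87%) and in 0.764% of autosomal tiles. It was present at 11.1% of the other peaks and 9.09% of all nuclear peaks. The rule leaves out peaks within 250 bp of a tRNA gene, so a lower share at distal peaks was built in. Peaks at an RNA gene only carried the B box at 38.3%, and peaks at a coding start only at 0.747%. The strongest of the 7 distal peaks, at chrII:14496864-14497219, is shown because its summit lay in K10H10.14, a noncoding RNA gene of 284 bp, and 49 bp from K10H10.11. Capitals mark the B box.
Upstream of dhs-8, chrII:14496992-14497092: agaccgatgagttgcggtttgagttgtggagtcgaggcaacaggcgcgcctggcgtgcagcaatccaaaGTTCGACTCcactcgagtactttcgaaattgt

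That peak lay 984 bp upstream of dhs-8 and had a signal of 120.3, with 78.5 (rank 58) and 52.5 (rank 61) in the replicates, the highest at any noncoding RNA gene among the distal peaks. Genes of other noncoding classes lay within 250 bp of 62 distal summits (16.6%, interval 13.0 to 20.7%), against 13.0% of the eligible bases, 25.04% of the other peaks and 23.2% of all nuclear peaks. Genes annotated as ncRNA lay near 44 summits, 17 of them inside the gene. Of the others, piRNA genes lay near 6, miRNA genes near 5, pseudogenes near 5, lincRNA genes near 4 and an antisense RNA gene near 2. No summit lay inside a piRNA gene. The miRNA genes were mir-51, mir-75, mir-2214, mir-4936 and mir-5595, and the peak at mir-5595, in an intron of nurf-1, had a signal of 54.6 and ranked 391 in replicate 1 and 22654 in replicate 2. The peak at mir-51 had a signal of 51.7 and ranks of 557 and 2213. The strongest in the remaining classes had signals of 63.96 at linc-128 and 53.2 at the lincRNA gene F39E9.10, 53.8 and 48.2 at the piRNA genes 21ur-8851 and 21ur-13952, and 53.8 and 53.6 at the pseudogenes K10B2.t1 and T26C11.3.

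Several structural RNA genes that the annotation files under ncRNA lay under distal peaks, and they were singled out after their values had been seen. The RNA of RNase P, the enzyme that trims the 5′ ends of tRNA precursors, is encoded by rpr-1 in an intron of ints-8, an Integrator subunit gene. The peak there had a pooled signal of 86.2 and replicate ranks of 363 and 91. Of 5 genes of the signal recognition particle RNA, which serves protein targeting to membranes, 3 had a distal peak, each weaker than that at rpr-1: srpr-1.2 with 50.6 and ranks of 708 and 4902, srpr-2.1 with 48.9 and ranks of 1639 and 641, and srpr-2.2 with 42.5 and ranks of 1645 and 1669. Of the 36-mers in their peaks, 58.9 to 64.2% occur elsewhere in the genome. Some reads there may therefore not be assignable to 1 copy with certainty, which was not tested. By contrast, 351 of 374 distal peaks (93.9%) held no repeated 36-mer, against 75.3% of the other peaks. The other peaks include those at tRNA and further RNA genes, which the rule leaves out of the distal peaks. Peaks at an RNA gene only had a median of 14.6% repeated 36-mers. For peaks at a coding start only, the upper quartile was 0, the same as for distal peaks. The copies srpr-1.1 and srpr-3 and the Y RNA gene yrn-1 had no reproducible peak. On X, tts-1, a noncoding RNA known to be abundant in long-lived daf-2 mutants, lay within 250 bp of peaks with signals of 54.8 and 38.4.

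Distal peaks were spread along the chromosomes. Chromosome III held 84 (22.5%, against 13.9% of the eligible bases), X 80 (21.4 against 18.4%), I 58 (15.5 against 15.2%), II 56 (14.97 against 14.8%), IV 56 (14.97 against 17.7%) and V 40 (10.7 against 19.9%). Neighbours on a chromosome lay a median of 160931 bp apart, and 28 of 368 neighbouring pairs lay within 5000 bp. The strongest on chromosome I lay 1128 bp downstream of the start of F40E3.3, with a signal of 97.6 and ranks of 147 and 211. Overlap with another distal peak was found for 6 and with a peak at a start or RNA gene for 1.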

How the data were processed

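Per the labels, anti-GFP ChIP-seq was done on sonicated material of 2 biological replicates. For each replicate, and for the pool, the authors deposited 30000 peaks as the input of a test of the irreproducible discovery rate (IDR), and a list of 1707 pooled peaks that passed it, 23 of them mitochondrial. Signal values, as the authors deposited them, need not share a scale across lists, so replicates were compared by rank. The deposited −log10 q-values reached a ceiling in many peaks and were only tabulated. Aligner, peak caller, control and IDR threshold are not stated in the labels or file headers read here. The lists hold no read totals, so depth is unknown.

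The ce11 lists were read with Python 3.11.15, NumPy 2.4.6 and SciPy 1.17.1. Genes came from Ensembl release 115 and products from RefSeq, both on WBcel235. Sequences are RefSeq, forward strand, ce11. An exon call took precedence over an intron call, and introns and exons are of coding genes. A base met the rule when a summit there would have made a distal peak. A strongest peak of a replicate is among its 1707 highest by signal, and an overlap is at least 1 bp. Motifs were read within 50 bp of the summit on both strands. Shares carry 95% Clopper-Pearson intervals, and no test was run, since there is 1 group. Named peaks are the 15 strongest, the 5 strongest of each position class, the 2 strongest of each chromosome and other biotype, the 5 farthest, the 3 on each side of the limit, and peaks in genes with at least 3. Further peaks shown for their motif, host gene or RNA gene were chosen after their values were seen. The rule, lists and motifs were chosen with earlier results of these data known. The script was tested on planted peaks and motifs.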

Additional observations from a re-analysis of the deposited data

How the results depend on the processing

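All 10 summary results were recomputed under the alternatives, and 80 values stayed within 1.5 times the main count or within the main 95% interval, while 33 did not. A coding distance of 250 bp gave 638 distal peaks (37.9% of nuclear peaks), with 22.7% in introns, 67.7% between genes, 9.56% in exons, 47.6% within 500 bp of a coding transcript start, 49.7% in the strongest peaks of both replicates, 39.5% above the median signal and 26.6% over 2000 bp from a start. A distance of 1000 bp left 15.7% of nuclear peaks, 26.8% of them above the median signal and 64.2% over 2000 bp away. Reading the nearest edge of the peak left 19.0%, with 53.1% over 2000 bp away. Starts of all coding transcripts left 19.8%, with 24.9% in introns, 62.6% between genes and, by construction, 0% near such a start. Peaks above the median signal gave 121 distal peaks (14.4%), with 20.7% in introns, 69.4% between genes, 4.96% near a transcript start, 85.1% in both replicates, 42.1% above their own median and 37.2% over 2000 bp away. With 853 peaks per replicate the share in both fell to 14.2%, and with the whole lists it rose to 98.9%. Other biotypes stood at 6.95% when the summit had to lie inside and at 21.1% within 500 bp.

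With the strongest peaks of replicate 2 or of replicate 1 alone, the count was 483 and 419, that is 24.9 to 28.7% of nuclear peaks, with 15.7 to 16.7% in exons. The cause of these shifts was not tested. RNA gene distance, RefSeq genes, merged overlaps and, added after seeing the data, autosomes alone moved no summary result past these limits. The ce10 list (1672 nuclear peaks) had no annotation used here and gave no value. No paired analysis was possible because there is a single group. Unknown depth limits the replicate comparison.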

Other observations

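The genes at the distal peaks, taken as the host gene or else the gene of the next start, were set against 10 name lists, chosen with earlier results of these data known. Nuclear hormone receptor genes stood at 8 distal peaks (2.14%), against 8 of the other 1310 (0.611%) and 1.35% of coding genes. These were nhr-3, nhr-19, nhr-20, nhr-21, nhr-34, nhr-69 and nhr-274, with nhr-19 at 2 peaks. Ribosomal protein genes stood at 3 distal peaks (0.802%), namely rps-24, rpl-3 and rps-28, against 40 of the other peaks (3.05%) and 0.406% of coding genes. Proteasome genes stood at 1 (rpn-6.1, 0.267%), against 15 of the other peaks (1.145%) and 0.165% of coding genes. For translation factor genes these were 1 (eif-2beta, 0.267%), 16 (1.22%) and 0.190%. Heat shock genes had 1 (hsp-1, 0.267%), 6 (0.458%) and 0.255%, and collagen genes 1 (col-185, 0.267%), 6 (0.458%) and 0.781%. G protein receptor genes, 6.60% of coding genes, stood at 1 distal peak (0.267%) and 15 others (1.145%). Histone genes, 0.360% of coding genes, stood at 0 distal peaks and 3 others (0.229%). Homeobox genes (0.315%) stood at 1 (0.267%) and 4 (0.305%). Neuropeptide genes (0.701%) stood at 2 (ins-39 and nlp-40, 0.535%) and 4 (0.305%). The counts are descriptions, and a gene next to a peak is not shown to be its target.

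Of the 374 distal peaks, 6 were narrower than the usual 356 bp, 5 of them on X, and all 6 stood among the 20 strongest distal peaks. Narrower peaks also occurred among the other nuclear peaks, down to 89 bp. Their share is not given here, so narrowness is not shown to be particular to distal peaks.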
